A study of Mus musculus with 6 samples.

Results

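Unstimulated mouse macrophages labelled as Setd2 knockout (KO) were compared with unstimulated wild type (WT) macrophages, as 1 RNA sequencing library on each side, 2 of the 6 libraries of the study. The cells were bone marrow-derived macrophages, obtained from the marrow of C57BL/6 mice of 8 weeks by culture in DMEM medium with the growth factor M-CSF for 5 days. The KO 0 h and WT 0 h groups had received no lipopolysaccharide (LPS, a component of bacterial cell walls that activates macrophages). The other 4 libraries were KO and WT cells after 12 h and after 24 h with 100 ng/ml LPS, and they are used here only to show the same genes in other pairs. Whether libraries share an animal or a culture, which Setd2 allele was used and how it was deleted are not given in the sources used here. The deposited values were FPKM, fragment counts divided by transcript length and by the mapped total. Genes at 1 FPKM or more in either library, 10998 of 17904, are termed measured. Every difference below is KO minus WT on the scale of log2(FPKM + 1), which understates the change of weakly expressed genes. A gene was called higher or lower at a difference of 1 on that scale, a 2-fold difference. With 1 library on each side there is no replicate check, no p-value and no way to tell the genotype from the particular culture, so all values describe these libraries. The estimated depth was 21300000 reads for the library labelled KO and 21500000 reads for the WT library, and the FPKM totals were 461013 in the library labelled KO and 534080 in the WT library.

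Setd2 is the histone methyltransferase that places the trimethyl mark on lysine 36 of histone H3 over the bodies of transcribed genes, and it travels with elongating RNA polymerase II. Type I interferons are secreted signals against viruses. They bind the receptor chains Ifnar1 and Ifnar2, whose kinases Jak1 and Tyk2 activate a transcription factor that contains Stat2 and Irf9. That factor binds the interferon-stimulated response element (ISRE) in the promoters of its target genes, the interferon-stimulated genes. Macrophages keep a low basal expression of these genes and raise it after sensing nucleic acids or bacterial products such as LPS.

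The targeted gene was not lower in the library labelled KO as deposited. Setd2 (chromosome 9, 110532500 to 110618633, GRCm38) had 9.96 FPKM in the library labelled KO, against 7.83 FPKM in the WT library, a difference of 0.31. After 12 h with LPS it had 9.16 FPKM in the library labelled KO and 8.68 FPKM in the WT library, a difference of 0.07. After 24 h it had 5.11 FPKM in the library labelled KO and 7.51 FPKM in the WT library, a difference of -0.48. With the trend with transcript length described further on removed from each pair, these differences were -0.13, 0.02 and -0.20. A value over a whole gene cannot show whether an internal part of the transcript is missing, so it does not check the label. Around Setd2 on chromosome 9, 18 genes were measured, with a median difference of 0.21, and 1 was called, the serine protease gene Prss50. The other enzymes that add or remove methyl groups at lysine 36 were close between the libraries, with 0 of 13 called and a median of 0.20 that became 0.03 once that trend was removed.

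A far larger difference lay in the lysozyme genes, which encode the enzyme that cleaves bacterial cell walls. Lyz2 (chromosome 10, 117277541 to 117282272) had 17.7 FPKM in the library labelled KO, against 5502 FPKM in the WT library. Lyz1, which lies beside it, had 11 FPKM in the library labelled KO, against 569 FPKM in the WT library. The pair took 0.00623% of the FPKM total of the library labelled KO, against 1.14% of that of the WT library. The differences were -8.2 for Lyz2 and -5.57 for Lyz1, the lowest of all measured genes, and the other libraries showed the same separation: Lyz2 had 36 FPKM in the library labelled KO at 12 h, against 3903 FPKM in the WT library of that time, and 54.5 FPKM in the library labelled KO at 24 h, against 9015 FPKM in the WT library. No other measured gene within 1 Mb was called. Mdm2, the ubiquitin ligase that acts on p53, had the largest of their differences at 0.92. Of the 30-nt words in the Lyz2 transcript, 34.0% also occur in that of Lyz1, so the division of reads between the pair is uncertain. As background, the Lyz2 locus is widely used to carry the Cre recombinase in myeloid knockouts of other genes; the labels name no driver here, and whether this locus was altered was not tested.

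The remaining markers of macrophages were present on both sides. Of 15 such markers, 14 reached 1 FPKM in each library. Csf1r, the receptor for M-CSF, had 511 FPKM in the library labelled KO and 496 FPKM in the WT library, and Adgre1, which encodes the surface antigen F4/80, had 284 FPKM in the library labelled KO and 292 FPKM in the WT library. Of 11 T and NK cell markers 0 reached 1 FPKM in either library, with a summed level of 0.99 FPKM in the library labelled KO and 1.63 FPKM in the WT library. B cell markers summed to 2.23 FPKM in the library labelled KO and 3.81 FPKM in the WT library. The summed neutrophil markers were 81.2 FPKM in the library labelled KO and 115.7 FPKM in the WT library.

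In the library labelled KO, 342 of 10998 measured genes were called higher (3.11%) and 146 were called lower (1.33%), while the median of all measured genes was 0.02. Calls were therefore 70.1% higher ones; the share was 86.4% when both columns were rescaled to the same total, which moved the median of all genes to 0.20, and 87.1% when the trend with transcript length was removed. A difference of at least 4-fold was seen for 47 higher and 9 lower genes. Genes for microRNAs and small nucleolar or nuclear RNAs, which this kind of library measures poorly, made up 56 of the higher and 46 of the lower calls, against 1.75% of measured genes, and are not named. Interferon-stimulated genes and genes of antigen presentation on MHC class I, taken from 9 lists with 170 measured members, held 81 of the 342 higher calls (23.7%) and 0 of the 146 lower ones, against 1.55% of measured genes. Among the 35 genes at 5 FPKM or more that were at least 4-fold higher, 26 belonged to these lists (74.3%, against 1.82% of measured genes at that level). Of the 20 highest genes that carry a name, 17 did. The lists were chosen with earlier results of these data known, so these shares describe the calls and are not independent support.

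**Figure D1:**
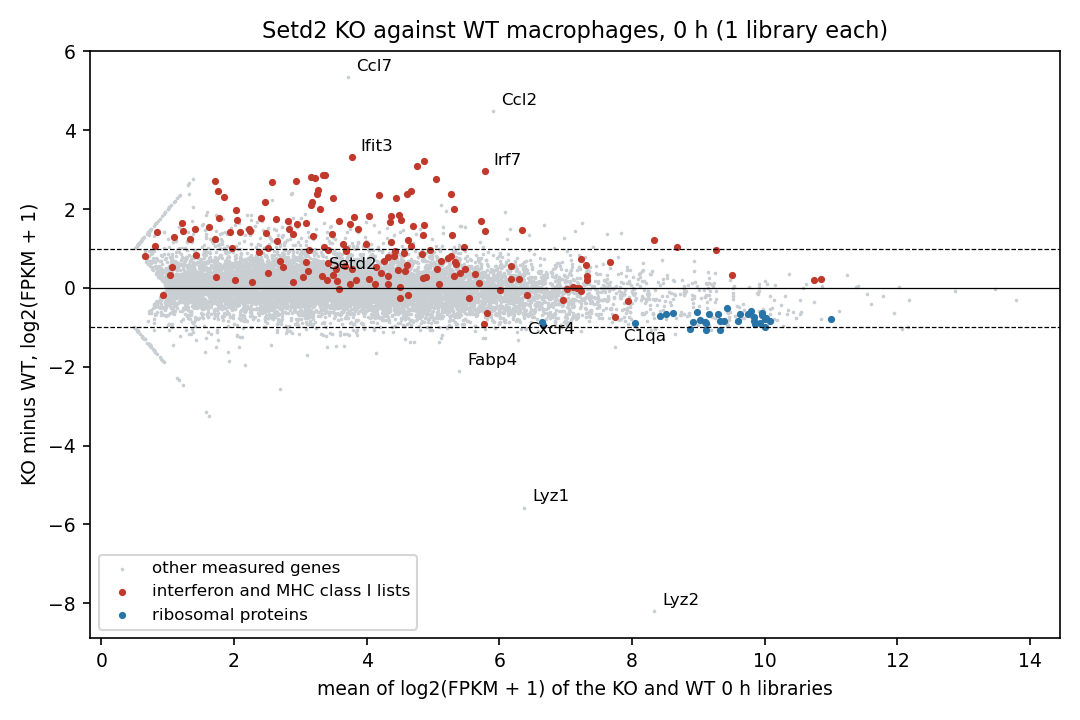
Difference between the library labelled KO and the WT library at 0 h (y axis, log2 of FPKM + 1, KO minus WT) against the mean level of the pair (x axis, log2 of FPKM + 1), with 1 point for each of 10998 measured genes. Dashed lines mark the 2-fold rule. Members of the interferon and MHC class I lists (red) lie mostly above 0, ribosomal protein genes (blue) lie below 0 at high levels, and Lyz2 at -8.2 and Lyz1 at -5.57 stand far below all others.

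The genes of interferon signalling split by their place in the pathway. Interferon genes themselves were not measured: 4 of 21 were in the table, with a summed level of 0.19 FPKM in the library labelled KO and 0.16 FPKM in the WT library. The receptor chains were close, with 30.5 FPKM in the library labelled KO and 25.5 FPKM in the WT library for Ifnar1 and 78.9 FPKM in the library labelled KO and 89.4 FPKM in the WT library for Ifnar2. Stat2 had 41.4 FPKM in the library labelled KO, against 10.8 FPKM in the WT library, a difference of 1.84. Of 16 measured receptor, kinase and STAT genes 2 were called, both higher, Stat2 among them. Irf9, the DNA-binding partner of Stat2, was just short of the rule at 0.89. Among 7 interferon regulatory factors only Irf7, the factor that amplifies interferon production and is itself interferon-inducible, was called. It had 153 FPKM in the library labelled KO, against 18.7 FPKM in the WT library, a difference of 2.97, whereas Irf3, the constitutive factor that starts interferon production, had 22.1 FPKM in the library labelled KO and 25.3 FPKM in the WT library.

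The families of effectors lay higher as groups. Among 14 measured IFIT and OAS genes 11 were called, all of them higher, and the median difference was 2.34, beside the median of 0.02 over all measured genes. IFIT proteins bind viral RNA ends and OAS proteins sense double-stranded RNA. Ifit3 had 42 FPKM in the library labelled KO, against 3.34 FPKM in the WT library. Ifit1 had 14.1 FPKM in the library labelled KO, against 1.33 FPKM in the WT library. The ratios of KO to WT were 12.6 for Ifit3 and 10.6 for Ifit1, whose 95% counting intervals, from estimated reads, were 10.5 to 15.3 and 8.37 to 13.6. Such intervals cover counting error only. Oasl2 had 88 FPKM in the library labelled KO, against 8.54 FPKM in the WT library. Oas3 had 86.9 FPKM in the library labelled KO, against 15.9 FPKM in the WT library.

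Modifiers by the ubiquitin-like protein Isg15 showed 4 of 6 members called higher. Isg15 had 58.6 FPKM in the library labelled KO, against 9.86 FPKM in the WT library. Usp18, which removes Isg15 from proteins and dampens signalling at the interferon receptor, had 26.9 FPKM in the library labelled KO, against 2.85 FPKM in the WT library. The conjugating enzyme Ube2l6 was higher by 1.04 and the ligase Herc6 by 1.02, which was 0.82 without the length trend, while the activating enzyme Uba7 reached 0.95.

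Sensors of foreign nucleic acid had 13 of 24 members called higher, with a median of 1.17. The cytosolic RNA sensors of the RIG-I family were all among them: Ddx58, which encodes RIG-I, had 23.9 FPKM in the library labelled KO, against 4.14 FPKM in the WT library. Ifih1, which encodes Mda5, had 12.7 FPKM in the library labelled KO, against 3.41 FPKM in the WT library. Dhx58, which encodes Lgp2, had 37.7 FPKM in the library labelled KO, against 9.91 FPKM in the WT library. Zbp1, a sensor of Z-form nucleic acid that can start necroptosis, was higher still, with 23.7 FPKM in the library labelled KO, against 2.56 FPKM in the WT library, a difference of 2.79. The DNA-binding Ifi200 family followed, for example Ifi204 with 78.5 FPKM in the library labelled KO, against 18.9 FPKM in the WT library, and Mnda with 47.2 FPKM in the library labelled KO, against 8.85 FPKM in the WT library. The adaptors and kinases below these sensors were not called: Mavs differed by 0.09, Tmem173, which encodes Sting, by 0.09, and Tbk1 by 0.28. Of 21 Toll-like receptor and adaptor genes, 0 were called, with a median of 0.29, and the LPS receptor genes Tlr4 and Cd14 differed by 0.50 and 0.25.

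Of 15 interferon-induced GTPases, which attack the membranes around intracellular pathogens, 13 were called higher, with a median of 1.41. Irgm1 had 49.5 FPKM in the library labelled KO, against 15.7 FPKM in the WT library. Gbp3 had 8.83 FPKM in the library labelled KO, against 1.86 FPKM in the WT library, and Gbp2 differed by 1.37. The Schlafen family had 6 of 8 called, led by Slfn5 with 54.7 FPKM in the library labelled KO, against 9.72 FPKM in the WT library. Slfn2, its most abundant member, was not called, with 177 FPKM in the library labelled KO and 143 FPKM in the WT library.

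Other antiviral and interferon-induced proteins had 27 of 57 members called higher, 0 lower, and a median of 0.97. Siglec1, a sialic acid-binding receptor of macrophages, had 77.9 FPKM in the library labelled KO, against 8.25 FPKM in the WT library, a difference of 3.09. Rsad2, which encodes the antiviral enzyme viperin, had 22.7 FPKM in the library labelled KO, against 2.35 FPKM in the WT library. The dynamin-like GTPases Mx1 and Mx2 differed by 2.18 and 1.66, and the RNA-activated kinase gene Eif2ak2 by 1.5. Membrane proteins that block viral entry or release were less apart: Ifitm3 had 858 FPKM in the library labelled KO, against 441 FPKM in the WT library, a difference of 0.96, Bst2 differed by 0.65, and Ifitm2 ran the other way at -0.73. These 3 transcripts are short, and with the length trend removed their differences were 1.58, 1.21 and -0.09. Members with near-identical copies, among them the Slfn, Ifi200, Gbp and Oas genes and the pair Ifit3 and Ifit3b, are uncertain one by one. Reads that match several copies can be divided between them only by estimate. The submitters' notes name RSEM, but its version and settings are not given in the sources used here.

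Irf7 and Bst2 are also in a list of 8 markers of plasmacytoid dendritic cells, whose summed level was 420 FPKM in the library labelled KO and 195 FPKM in the WT library. Of the other markers, Tcf4 had 7.99 FPKM in the library labelled KO and 9.59 FPKM in the WT library. Cox6a2 had 3.41 FPKM in the library labelled KO and 3.11 FPKM in the WT library. Siglech had 0.71 FPKM in the library labelled KO and 0.63 FPKM in the WT library. Ccr9 had 0.38 FPKM in the library labelled KO and 0.47 FPKM in the WT library. Klk1 and Ly6d also stayed under 1 FPKM on both sides. In bulk RNA, more cells of a type and more RNA per cell cannot be told apart.

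MHC class I genes were higher in part. Of 23 measured members 4 were called, the class Ib and Q-region genes H2-T24 at 2.1, H2-Q6 at 1.99 and H2-Q7 at 1.25, and Nlrc5, the transactivator of class I genes, at 1.19, which was 0.82 without the length trend. The list median was 0.35, and 20 of the 23 were above 0. Without the length trend the median was 0.54, all 23 were above 0 and 5 were called higher. As deposited the classical genes were close, H2-K1 with 815 FPKM in the library labelled KO and 652 FPKM in the WT library. H2-D1 had 1840.0 FPKM in the library labelled KO and 1591 FPKM in the WT library, and the light chain B2m differed by 0.22. Class II genes had 0 of 14 called and a median of -0.21, which became 0.07 with the length trend removed. Cd74, the invariant chain of class II, had 358 FPKM in the library labelled KO, against 649 FPKM in the WT library.

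**Figure D2:**
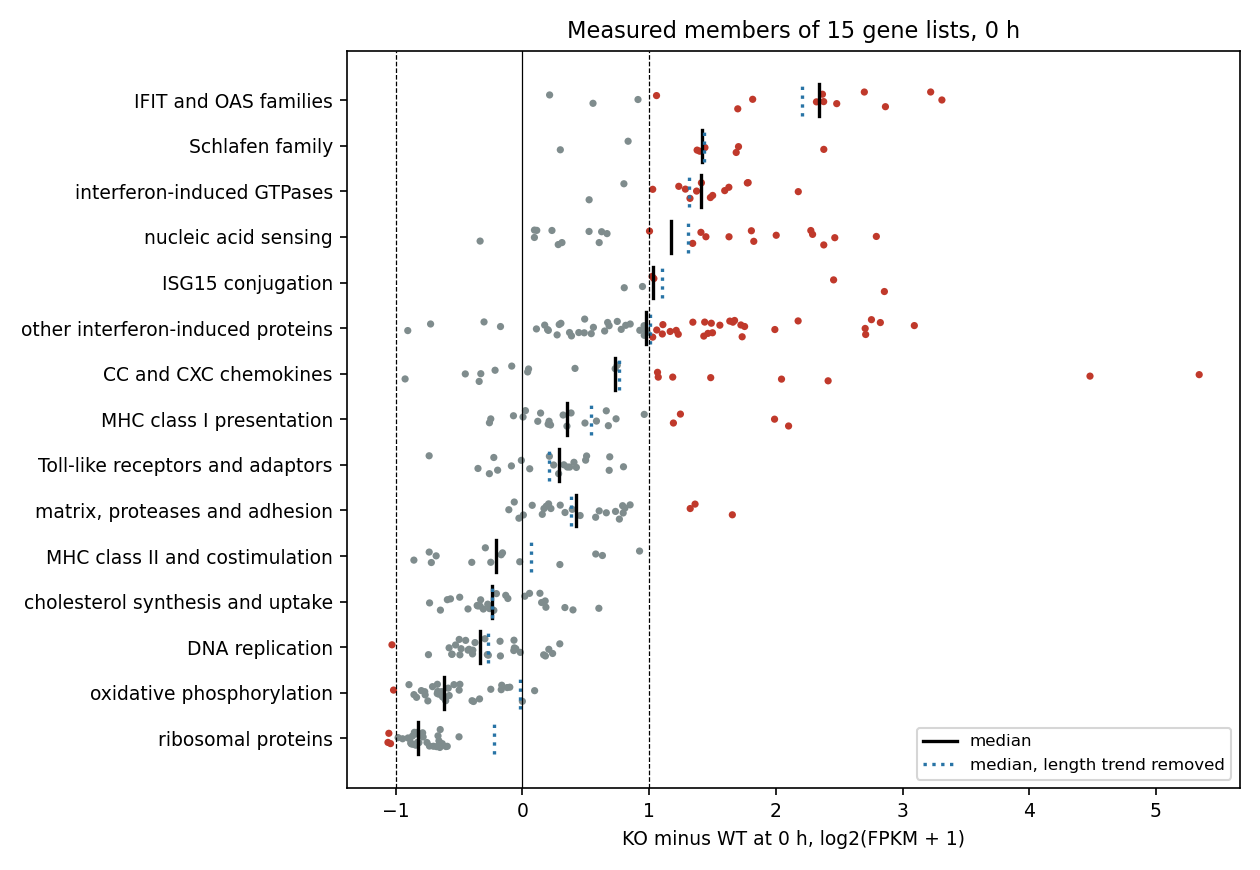
Difference at 0 h (x axis, KO minus WT, log2 of FPKM + 1) of every measured member of 15 gene lists, 1 point for each gene, red where it passes the 2-fold rule (dashed lines). Black bars are list medians as deposited and dotted blue bars are medians after the length trend was removed. The interferon-related lists at the top have medians from 0.97 to 2.34 as deposited and move little without the trend, while the median of ribosomal proteins moves to -0.23 and that of oxidative phosphorylation to -0.02.

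Promoters of the strongly higher genes were read from RefSeq sequences of GRCm38.p6, 250 bases before to 50 after the start, which 14 of the 20 highest named genes had. The ISRE core was searched as GAAA, any 2 bases, GAAA, on both strands (TTTC, any 2 bases, TTTC on the other), with overlaps allowed, and 7 of these 14 genes held it. Shown here are 4 of them that encode the classical effectors of the response, with the ISRE core in capitals, read 5′ to 3′ on the strand of the gene. For Ifit3 (chr19:34583279-34583578, plus strand) the matches begin at -156 and -122, counted from the start.
Ifit3: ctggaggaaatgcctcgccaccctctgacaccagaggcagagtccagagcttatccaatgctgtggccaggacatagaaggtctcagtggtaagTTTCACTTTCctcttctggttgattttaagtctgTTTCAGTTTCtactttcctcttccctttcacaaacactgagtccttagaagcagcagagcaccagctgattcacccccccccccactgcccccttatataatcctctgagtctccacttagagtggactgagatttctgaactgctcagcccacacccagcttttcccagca
Ifit1 lies on the same chromosome (chr19:34640639-34640938, plus strand), with matches at -104 and -85.
Ifit1: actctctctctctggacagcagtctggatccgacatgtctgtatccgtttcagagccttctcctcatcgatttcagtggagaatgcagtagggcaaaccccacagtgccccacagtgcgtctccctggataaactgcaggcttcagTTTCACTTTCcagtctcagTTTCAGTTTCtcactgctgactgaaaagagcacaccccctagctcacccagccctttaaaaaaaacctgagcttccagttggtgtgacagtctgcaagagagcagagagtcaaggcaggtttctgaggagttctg
In Isg15 (chr4:156200769-156201068, minus strand) 3 overlapping matches begin at -78, -72 and -66 and form 1 run.
Isg15: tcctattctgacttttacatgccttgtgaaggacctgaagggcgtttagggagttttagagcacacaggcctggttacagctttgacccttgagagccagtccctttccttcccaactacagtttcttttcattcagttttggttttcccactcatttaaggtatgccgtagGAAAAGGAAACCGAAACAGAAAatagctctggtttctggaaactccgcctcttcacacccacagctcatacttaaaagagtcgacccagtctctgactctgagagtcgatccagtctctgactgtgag
Rsad2 (chr12:26456403-26456702, minus strand) has 1 match, at -120.
Rsad2: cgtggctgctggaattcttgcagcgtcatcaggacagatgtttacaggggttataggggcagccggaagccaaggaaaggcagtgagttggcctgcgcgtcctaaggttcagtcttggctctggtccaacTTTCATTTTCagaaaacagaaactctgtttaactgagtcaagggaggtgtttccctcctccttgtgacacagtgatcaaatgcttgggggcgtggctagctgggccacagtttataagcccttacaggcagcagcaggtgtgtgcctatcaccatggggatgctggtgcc

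Over all measured genes with a promoter sequence, 349 of 8767 held the ISRE core (3.98%). Among genes called higher it was in 47 of 225 (20.9%), among those called lower in 3 of 75 (4%), and among those at least 4-fold higher in 12 of 23 (52.2%). The called members of the interferon and MHC class I lists accounted for most of this, with 38 of 62 promoters (61.3%), against 9 of 163 (5.52%) for the called genes in none of these lists. List members that were not called held it in 19 of 73 promoters (26%). The gamma-activated site, TTC, any 3 bases, GAA, was in 8.44% of the promoters of genes called higher and in 8.11% of all, and a kappa B form, GGGAA, any 3 bases, CC, on either strand, was in 12% and 8.20%. Members of the interferon and MHC class I lists held both more often, whether called or not. The gamma-activated site was in 17.7% of the called members and 17.8% of the others, and the kappa B form in 17.7% and 16.4%. Called genes in none of these lists held them in 4.91% and 9.82%. The other named genes of the highest 20 with a promoter sequence but no ISRE core in this window were Oasl2, Irf7, Oasl1, Cmpk2, Ifi44, Ifit2 and Pyhin1. A match is a string of letters, not a bound site.

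Some genes called higher lay side by side. A run was 3 or more called genes of 1 direction that were neighbours or lay within 1 Mb. Each span begins and ends at a called gene, so its share of calls and its median are raised by that choice. They cannot be weighed against the 3.11% of all measured genes called higher. Many runs hold copies of 1 gene family, whose members are uncertain one by one. In GRCm38, all 9 measured genes of the Ifi200 cluster on chromosome 1 (173566280 to 174031755) were called higher, with a median of 1.81. All 7 measured genes on chromosome 11 from 48865245 to 49096987, among them Irgm1, Tgtp2 and Ifi47, were called. So were all 4 measured guanylate-binding protein genes on chromosome 3 (142496934 to 142638008). In the span of the Ifit genes on chromosome 19 (34473783 to 34662981), 6 of 7 measured genes were called. They were Ifit2, Ifit3, Ifit1bl1, Ifit3b and Ifit1, and Ch25h beside them. In the span of the Oas genes on chromosome 5 (120730333 to 121442549), 5 of 11 were called. They were Oas2, Oas3, Oas1g and Oas1a, and Naa25 beside them. Outside the interferon families, 4 of 6 measured genes around Trem1 and Treml2 on chromosome 17 (48151896 to 48326511) were called. The run with the most called genes, on chromosome 11 (82035577 to 83664683), joined the CC chemokine genes Ccl2, Ccl7, Ccl12, Ccl6, Ccl3 and Ccl4 with the Schlafen genes, and 13 of its 28 measured genes were called higher and 0 lower.

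Chemokines were the other part of the upper end. Ccl7 and Ccl2, which attract monocytes through the receptor Ccr2, had the largest differences among the genes higher in the library labelled KO at 5 FPKM or more. Ccl7 had 82.5 FPKM in the library labelled KO, against 1.06 FPKM in the WT library, a difference of 5.34. Ccl2 had 282 FPKM in the library labelled KO, against 11.7 FPKM in the WT library, a difference of 4.48. The WT value of Ccl7 stood for about 17 reads, so its ratio of 77.8 had a 95% counting interval of 48.4 to 134. The called chemokines, all of them higher, were 8 of 19 measured, whose median was 0.73. Cxcl10, which attracts T cells and is interferon-inducible, had 16 FPKM in the library labelled KO, against 2.19 FPKM in the WT library. Ccl6 had 119 FPKM in the library labelled KO, against 41.8 FPKM in the WT library, and the related Ccl3 and Ccl4 had differences of 1.07 and 1.07. Ccl5 was not called, with 49.1 FPKM in the library labelled KO and 47.5 FPKM in the WT library. Their receptors were mostly close: 1 of 15 was called higher, Ccr1 with 28.7 FPKM in the library labelled KO, against 10.1 FPKM in the WT library, and 1 was called lower, Cxcr4, which binds Cxcl12, with 48.4 FPKM in the library labelled KO, against 122 FPKM in the WT library.

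Of 17 measured cytokines 1 was called, beside a median of 0.41 that was 0.75 without the length trend, where 3 were called higher. The called gene was Csf1, the gene for M-CSF itself, with 8.61 FPKM in the library labelled KO, against 2.37 FPKM in the WT library. Tnf had 14.7 FPKM in the library labelled KO and 7.58 FPKM in the WT library, a difference of 0.88 that was under the rule, and Il1b differed by 0.41. Among 22 cytokine receptors and antagonists the called gene was Il1rn, the interleukin 1 receptor antagonist, with 71.5 FPKM in the library labelled KO, against 17.7 FPKM in the WT library, a difference of 1.96. Inhibitors of inflammatory signalling had 4 of 25 called higher and 0 lower: the phosphatase gene Dusp4 with 27.3 FPKM in the library labelled KO, against 7.89 FPKM in the WT library, Socs1, which blocks Jak kinases, at 1.53, Dusp6 at 1.27 and Tnfaip3, which encodes the NF-kB inhibitor A20, at 1.23. A list of NF-kB and AP-1 factors that also held Myc, Egr and Ier genes had 20 measured members. The called ones were Myc, which belongs to neither family, at 1.56, the AP-1 factor Jun at 1.03 and the NF-kB factor Rel at 1.01. Without the length trend Jun was at 0.98 and Rel at 0.61, under the rule. Nfkbia, a fast target and inhibitor of NF-kB, differed by -0.08.

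Surface receptors and secreted proteases of macrophages were mixed. Mmp12, the macrophage elastase, had 268 FPKM in the library labelled KO, against 84.4 FPKM in the WT library. Plau, which encodes the plasminogen activator urokinase, had 313 FPKM in the library labelled KO, against 121 FPKM in the WT library. With Mmp13, a collagenase, at 1.32, these were the 3 called members of 26 matrix and adhesion genes, whose median was 0.42. Axl, a receptor for dying cells, had 75.3 FPKM in the library labelled KO, against 25.3 FPKM in the WT library, and the scavenger receptor gene Msr1 differed by 1.04, which was 0.94 without the length trend. Ly6a, which encodes the surface antigen Sca-1 and is interferon-inducible, had 131 FPKM in the library labelled KO, against 33.6 FPKM in the WT library. Of the C-type lectins and Siglecs, Cd33 was higher by 1.59 and Clec4n, which encodes dectin 2, by 1.32, while 3 neighbours on chromosome 6 (122921848 to 123071555), Clec4a1 at -1.19, Clec4a3 at -1.06 and Clec4b1 at -1.22, were called lower. None of these 3 was called without the length trend. Receptors of the CD300 and TREM families had 3 of 18 called higher, Cd300lf with 59.6 FPKM in the library labelled KO, against 19.7 FPKM in the WT library, and Treml2 and Trem1 at low levels. Fibroblast and stroma markers, which share collagen genes with the matrix list, summed to 17.8 FPKM in the library labelled KO and 11.3 FPKM in the WT library, with Pdgfra at 0.06 FPKM in the library labelled KO and 0.04 FPKM in the WT library; their part in the matrix values was not tested.

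Stress and metabolic lists had from 0 to 3 called members, beside the 3.11% of all measured genes called higher. Hmox1, the heme oxygenase, had 370.2 FPKM in the library labelled KO, against 139 FPKM in the WT library, a difference of 1.41, and the cystine carrier gene Slc7a11 differed by 1.08, which were the 2 called of 23 iron and NRF2 genes; without the length trend Slc7a11 was at 0.61, under the rule. In the list of unfolded protein and amino acid stress 3 of 19 were called: Ddit3, which encodes Chop, was higher by 1.24, Trib3 by 1.18 and Chac1 by 1.03, while Hspa5, which encodes the chaperone BiP, differed by 0.32 and Atf4 by 0.12. Ass1, which supplies arginine for nitric oxide synthesis, had 32.9 FPKM in the library labelled KO, against 12.3 FPKM in the WT library, and Acod1, which makes itaconate, differed by 1.13. Of 22 glycolysis and hypoxia genes, Pfkfb3 at 1.36 and the glucose carrier gene Slc2a1 at 1.03 were called, and Slc2a1 was at 0.98 without the length trend. Of 26 genes of cholesterol synthesis and uptake 0 were called, with a median of -0.24 with and without the length trend and of -0.04 when both columns were rescaled to the same total. Ch25h, the interferon-inducible enzyme that makes 25-hydroxycholesterol, was low in both but higher in the library labelled KO, with 2.84 FPKM in the library labelled KO, against 0.31 FPKM in the WT library.

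Of the 146 genes called lower, 127 were in none of the lists, 66 of them predicted genes, clones, small RNAs or pseudogenes. Single members of the fatty acid list (1 of 32), the complement list (1 of 11) and the replication and mitosis lists (1 of 30 each) were called lower, beside 1.33% of all measured genes. So were single members of the lists of eicosanoids (1 of 19), Fc receptors (1 of 7), chemoattractant receptors (1 of 15), inflammasome genes (1 of 29) and oxidative phosphorylation (1 of 34). More were called lower among C-type lectins and Siglecs (3 of 15), ribosomal proteins (3 of 34), cholesterol efflux genes (2 of 17) and lysozymes and granule proteins (2 of 17). Fabp4, a fatty acid carrier of macrophages and fat cells, had 19.1 FPKM in the library labelled KO, against 86.2 FPKM in the WT library, a difference of -2.12. Hpgd, which inactivates prostaglandins, had 8.99 FPKM in the library labelled KO, against 30.1 FPKM in the WT library. Apoe, the apolipoprotein that carries cholesterol out of macrophages, had 2991 FPKM in the library labelled KO, against 6136 FPKM in the WT library, a difference of -1.04 that was -0.72 without the length trend. C1qa, a chain of the first complement component, had 126 FPKM in the library labelled KO, against 358 FPKM in the WT library; its partner chains C1qb and C1qc differed by -0.79 and -0.60, so that the 3 chains, which form 1 complex, did not differ to the same extent. Stmn1, a regulator of microtubules, had 225 FPKM in the library labelled KO, against 556 FPKM in the WT library, a difference of -1.3 that was -0.85 without the length trend. Tk1, which recycles thymidine for DNA synthesis, and Birc5, which encodes survivin, were the called members of the replication and mitosis lists, at -1.03 and -1.03. Without the length trend Tk1 was at -0.73, under the rule, and Birc5 at -1.1; neither was called when both columns were rescaled to the same total. The 30 replication genes had a median of -0.34, which was -0.27 without the length trend and -0.13 with the same total. The 30 mitosis genes had a median of -0.18, which was -0.25 without the length trend and 0.02 with the same total.

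**Figure D3:**
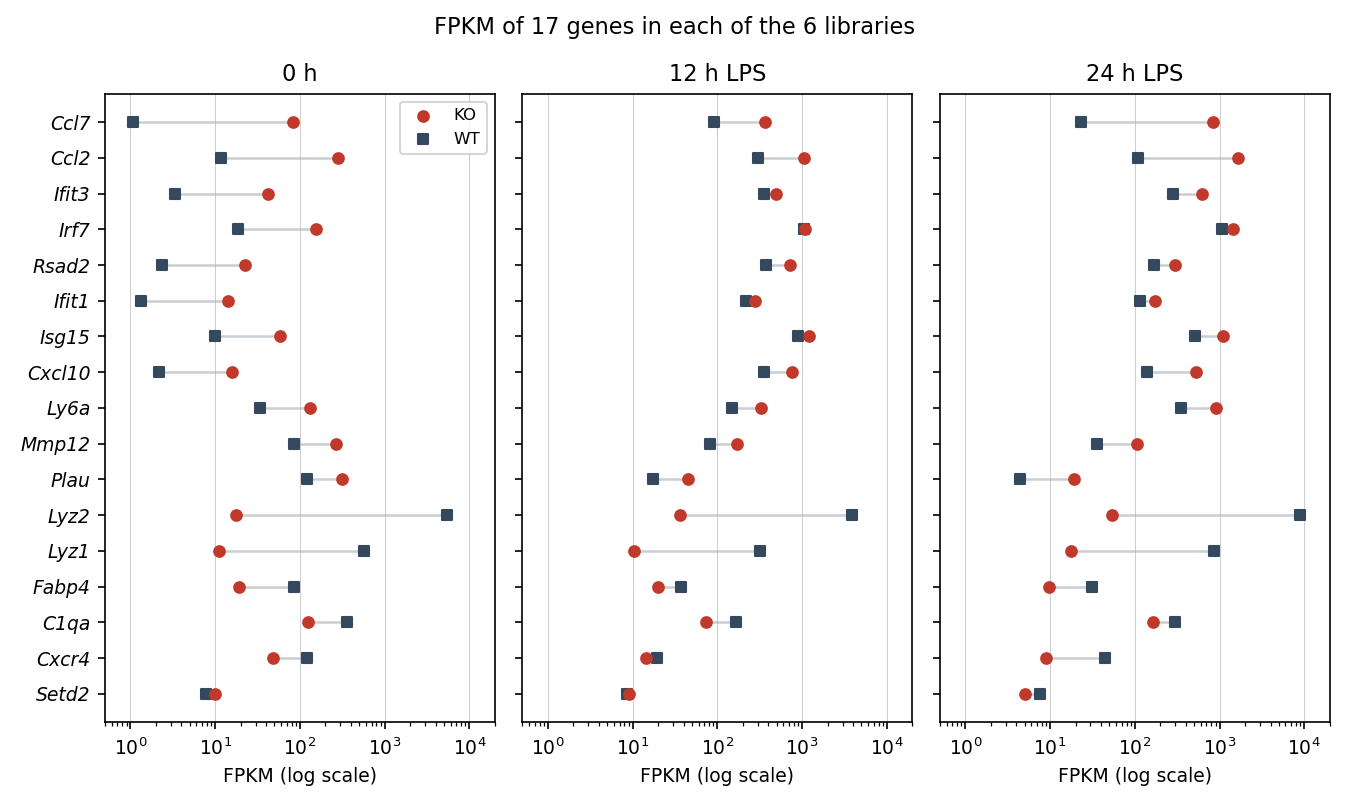
FPKM (x axes, log scale) of 17 genes in the library labelled KO (red circles) and the WT library (dark squares) at 0 h, 12 h and 24 h, 1 library per symbol, so no error bars can be drawn. At 0 h Ccl7, Ccl2 and the interferon-stimulated genes lie to the right in the library labelled KO; at 12 h the pair of Irf7 (KO 1073 FPKM, WT 1054 FPKM) nearly coincides, and Lyz2 and Lyz1 are far lower in the library labelled KO at every time.

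The differences followed transcript length. Across 7979 genes with a mean of 5 FPKM or more, the Spearman rho of the 0 h difference with the length of the longest transcript was 0.606. The median was -0.67 for the 88 genes with transcripts up to 512 nt, 0.03 for the 3283 between 2049 and 4096 nt, and 0.51 for the 226 over 8192 nt. The trend was weaker for weakly expressed genes, with a rho of 0.353 at means of 1 to 5 FPKM and 0.661 at 100 FPKM or more. With GC content the rho was -0.113. In the 12 h pair the rho with length was 0.146, and in the 24 h pair it had the other sign, at -0.425; genes of 1 library share its depth and preparation and are not replicates.

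Gene groups with uniform transcript lengths moved with this trend. All 34 measured ribosomal protein genes, which have short transcripts, were below 0, with a median of -0.82 and 3 called; without the trend 33 were below 0, with a median of -0.23. Their share of all FPKM was 4.01% in the library labelled KO and 5.97% in the WT library. The 34 genes of oxidative phosphorylation had a median of -0.62, and -0.02 without the trend. At the other end, all 30 very large transcripts in the list were above 0, with a median of 0.75 and 5 called; without the trend 22 were above 0, with a median of 0.12 and 0 called. Among them Lyst, a regulator of lysosome size, had 12.2 FPKM in the library labelled KO, against 3.49 FPKM in the WT library. Among called genes that are not small RNAs, the median transcript was 3422 nt for the higher and 1120 nt for the lower, against 2922 nt for measured genes. Without the trend 357 of 10916 genes were higher (3.27%) and 53 were lower (0.486%). Of the higher calls 267 were made both ways and 72 were lost, among them Ubr4, Ago2, Lyst and Spen; of the lower calls 34 were made both ways and 107 were lost, among them Cox7a1, Lst1, Atp5e and Crip1. The interferon lists moved little: without the trend the IFIT and OAS median was 2.21, that of the GTPases 1.32 and that of the nucleic acid sensors 1.30. Lyz2 at -7.85, Lyz1 at -5.2, Fabp4 at -1.6, Hpgd at -1.42, C1qa at -1.05 and Cxcr4 at -1.13 remained called lower. The nuclear RNA Malat1, long and yet lower with 34.6 FPKM in the library labelled KO, against 84.4 FPKM in the WT library, was at -1.26 as deposited and -1.64 without the trend.

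**Figure D4:**
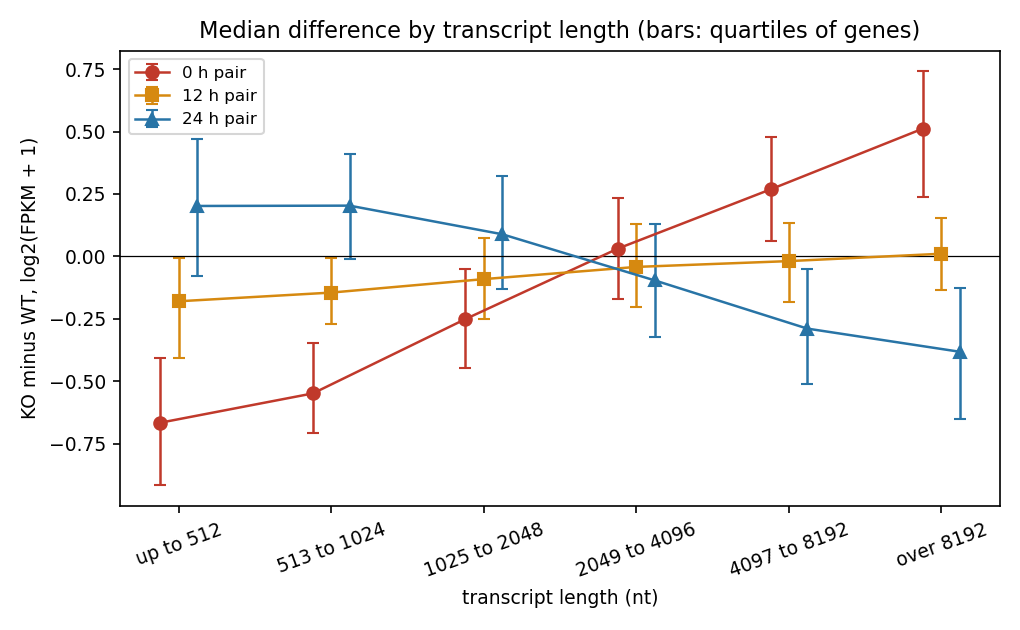
Median difference of KO minus WT (y axis, log2 of FPKM + 1) for genes in 6 bins of transcript length (x axis, nt), in the pairs of 0, 12 and 24 h; bars span the quartiles of genes in a bin. The medians go from -0.67 in the shortest bin to 0.51 in the longest at 0 h, and from 0.20 to -0.38 at 24 h.

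The pairs at 12 h and 24 h with LPS share no library with the 0 h pair. In the 12 h pair 1.43% of measured genes were called higher and 0.789% lower, and in the 24 h pair 2.44% and 2.13%. Of the 342 genes called higher at 0 h, 310 were measured in the 12 h pair. Of these, 34 were called higher there (11.0%, against 0.921% of all genes measured at both) and 10 lower (3.23%, against 0.598%). At 24 h 293 were measured, 47 were called higher (16.0%, against 1.86%) and 28 were called lower (9.56%, against 1.94%). Of these 28, 15 were still called higher at 0 h and lower at 24 h with the length trend removed from both pairs. The 81 called members of the interferon and MHC class I lists were all measured later. Their medians were 1.67 at 0 h, 0.35 at 12 h and 0.31 at 24 h. Of them 77 were above 0 at 12 h and 59 at 24 h, beside 38.3% and 37.5% of all genes. At these times 6 and 9 of them were called higher. For 80 of the 81 both 12 h libraries lay above both 0 h libraries, and for 76 both 24 h libraries did. Ifit1 had 278 FPKM at 12 h in the library labelled KO and 219.8 FPKM in the WT library, and Isg15 had 1199.7 FPKM in the library labelled KO and 886 FPKM in the WT library. The 261 other genes called higher had medians of 0.22 at 12 h and -0.07 at 24 h, beside -0.07 and -0.13 over all genes. With the length trend removed from each pair, 357 genes were higher at 0 h. At 12 h 304 of them were measured, 44 were called higher (14.5%, against 0.927% of all) and 6 lower (1.97%, against 0.483%). At 24 h 296 were measured, 59 were called higher (19.9%, against 1.40%) and 30 lower (10.1%, against 1.56%). The medians of these genes were 0.31 and 0.34, beside -0.06 and -0.11 over all genes.

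**Figure D5:**
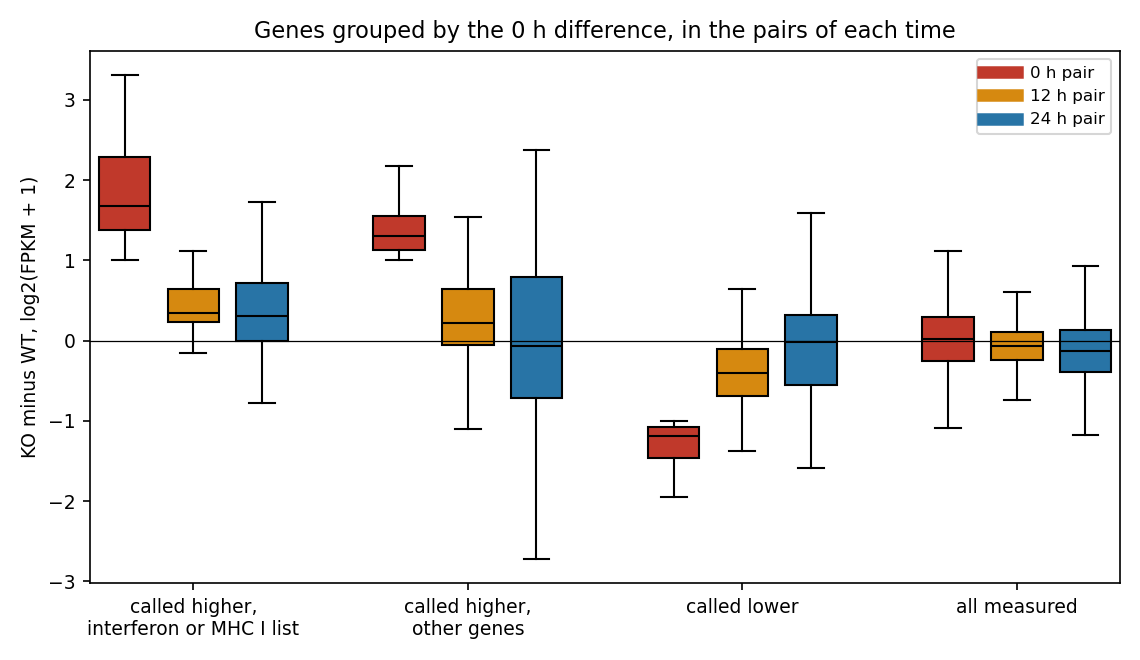
Differences (y axis, KO minus WT, log2 of FPKM + 1) in the pairs of 0, 12 and 24 h for 81 interferon or MHC class I genes called higher at 0 h, 261 other genes called higher, 146 called lower and all 10998 measured genes. Boxes span the quartiles over genes, lines are medians and whiskers reach 1.5 times the box; the 0 h boxes of the called groups are set by the choice of genes. The interferon group stays above 0 at its median in all pairs, at 1.67, 0.35 and 0.31.

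Called higher in all 3 pairs were 16 genes. They were the chemokine genes Ccl7, Ccl2, Ccl12 and Cxcl10, the growth factor gene Csf1, the proteases Plau, Mmp12 and Adam33, the surface proteins Ly6a, Cd300lf and Treml2, the interferon-inducible Ifit1bl1 and Ifi205, Glipr2, and 2 microRNA genes. Ccl2 had 1041 FPKM in the library labelled KO at 12 h, against 300.1 FPKM in the WT library, and 1638 FPKM in the library labelled KO at 24 h, against 108 FPKM in the WT library. Ccl7 had 832 FPKM in the library labelled KO at 24 h, against 23.1 FPKM in the WT library. Plau differed by 1.36, 1.31 and 1.89 at 0, 12 and 24 h, and Mmp12 by 1.66, 1.04 and 1.54. The 3 genes called lower in all 3 pairs were Lyz2, Lyz1 and Xlr3b, an X-linked gene at low level with 0.29 FPKM in the library labelled KO and 2.49 FPKM in the WT library at 0 h. Of the 146 genes called lower at 0 h, 101 were measured at 12 h and 13 were called lower there (12.9%, against 0.598% of all), and 105 were measured at 24 h and 16 were called lower (15.2%, against 1.94%). Called higher instead were 8 of the 101 at 12 h (7.92%, against 0.921%) and 12 of the 105 at 24 h (11.4%, against 1.86%). Their medians were -0.40 at 12 h and -0.02 at 24 h, where 51 of the 105 were above 0 (48.6%). Over all genes measured at both times the medians were -0.07 and -0.13, with 38.3% and 37.5% above 0. With the length trend removed from each pair, 53 genes were lower at 0 h. Of these, 40 were measured at 12 h and 8 were called lower there (20%, against 0.483% of all genes measured at both times and 0.653% of those measured at 12 h). At 24 h 42 were measured and 8 were called lower (19.0%, against 1.56% of all genes measured at both times and 1.81% of those measured at 24 h). Called higher instead were 2 of the 40 at 12 h (5%, against 0.927%) and 3 of the 42 at 24 h (7.14%, against 1.40%). Fabp4 differed by -0.87 at 12 h and -1.58 at 24 h, and Cxcr4 by -0.41 and -2.17.

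Near the rule, Ppp1r3e and Ndst1 at 1 and Pik3ap1 at 1.004 were just inside on the upper side, and Gfpt1 at 0.998, Tmem154 at 0.99 and Ep300 at 0.99 were just outside. On the lower side Isoc2a and Cirbp at -1.002 and Lst1 at -1.02 were inside, and Hmgn2, Gngt2 and Tmsb4x at -0.998, -0.998 and -0.995 were outside.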

How the data were processed

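The deposited table holds FPKM per gene with 2 decimals, as the authors made it, per the file headers. Per the submitters' processing notes, Bowtie2, RSEM and the build GRCm38 were used; versions and settings are not given in the sources used here. The table had 17905 rows, of which 1 names no gene; 25 symbols turned into dates were restored from gene IDs. Cd36 and Cers5 had no numeric value in the KO 0 h column (2 cells) and were left out. Columns were used as deposited, with a pseudocount of 1. Read depth was inferred from the spacing of FPKM values that single reads leave.

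Transcript lengths (longest listed transcript, GENCODE M21) covered 99.3% of measured genes. To remove the length trend, a lowess curve (span 0.3) over log2 length, fitted on genes with a pair mean of 5 FPKM or more, was centred and subtracted. Coordinates and promoters came from RefSeq (GRCm38.p6). There were 45 gene lists and 12 marker lists, matching 1110 of 1147 symbols. The members and lists were chosen with earlier results of these data known. Named genes were the 20 highest and 20 lowest at 5 FPKM or more, Setd2, called list members with up to 6 others a list, genes called in all 3 pairs, those whose call the length trend decides, and those nearest the rule. Some genes counted in the lists are not reported by name here. No test was possible with 1 library in each group. Alternatives were pseudocounts of 0.1 and 5, other scalings, minimum levels and fold rules. Python 3.11.15, pandas 2.3.3 and statsmodels 0.14.6 were used, and the scripts were tested on simulated data.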

Additional observations from a re-analysis of the deposited data

Results flagged for a closer look

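The trend of the difference with transcript length had opposite signs in the 24 h and 0 h pairs: the Spearman rho was -0.425 at 24 h, against 0.606 at 0 h, and it was 0.146 at 12 h, also with LPS. Several named genes that passed the 2-fold rule at 0 h passed it the other way in a later pair. Sap25, lower at 0 h with 1.66 FPKM in the library labelled KO, against 14.6 FPKM in the WT library, differed by 1.07 at 12 h, where the WT value was listed at 0. Rsc1a1, with 1.29 FPKM in the library labelled KO, against 7.83 FPKM in the WT library at 0 h, differed by 2.19 at 24 h. Malat1, at -1.26 at 0 h, differed by 1.16 at 24 h, with 226 FPKM in the library labelled KO and 101 FPKM in the WT library. The long transcripts Lyst and Spen, called higher at 0 h, differed by -1.44 and -1.13 at 24 h. In each of these cases the difference between the pairs was not tested, as every group held 1 library. With the length trend removed from each pair, Malat1 was at 1.41 at 24 h and -1.64 at 0 h, Lyst at -1.09 and 0.95, and Spen at -0.79 and 0.49, so each had opposite signs at these times both ways.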

How the results depend on the processing

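The counts of 342 genes called higher and 146 called lower depended on the settings. None of the 488 called genes changed direction under the other pseudocounts or scalings, nor did the 480 of known length without the length trend. These settings could hardly turn a called gene, so this is no measure of stability. A pseudocount cannot change a sign, and the scalings moved the median to 0.20 at most, beside a rule of 1. The medians along the length trend, from -0.67 to 0.51, also lay inside that rule. Setd2, which was not called, differed by -0.13 without that trend and by 0.31 as deposited. With 0.1 as the pseudocount there were 524 higher and 253 lower, and with 5 there were 109 and 36. Rescaling both columns to the same total gave 515 and 81, and this moved the median of all measured genes to 0.20. Removing the length trend gave 357 higher and 53 lower. A minimum of 5 FPKM left 230 higher and 86 lower, and a minimum of 1 FPKM in both libraries left 244 and 88. A 1.5-fold rule gave 1077 and 892, and a 3-fold rule gave 104 and 23. With the trend removed from each pair, 8 of 40 measured genes called lower at 0 h were called lower at 12 h (20%; 13 of 101 as deposited, 12.9%) and 8 of 42 at 24 h (19.0%; 16 of 105 as deposited, 15.2%). Called higher instead were 2 of these 40 genes (8 of 101 as deposited) and 3 of these 42 (12 of 105 as deposited). Median-of-ratios and trimmed-mean scaling both gave 332 and 157, and the rho with length lay between 0.541 and 0.635. Of 44 list medians, 7 changed sign with the same total and 5 without the length trend. Depth limits the genes near 1 FPKM: of the called genes with a known length, 58 higher and 49 lower rested on fewer than 20 estimated reads in both libraries together. No paired analysis was possible because each group holds 1 library.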

Other observations

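Among genes called higher, 209 were in none of the lists, 74 of them predicted genes, clones, small RNAs or pseudogenes. The following were chosen after their values were seen. Pdpn, which encodes the surface glycoprotein podoplanin, had 70.7 FPKM in the library labelled KO, against 15.7 FPKM in the WT library. Tgm2, a transglutaminase of macrophages, had 176 FPKM in the library labelled KO, against 57.5 FPKM in the WT library. Cbl, a ubiquitin ligase that acts on receptor kinases such as the M-CSF receptor, had 11.8 FPKM in the library labelled KO, against 1.75 FPKM in the WT library, a difference of 2.22 that was 1.66 without the length trend; its transcript is 11372 nt long. At 24 h Pdpn had 237 FPKM in the library labelled KO and 85.8 FPKM in the WT library, and Cbl had 3.18 FPKM in the library labelled KO and 6.47 FPKM in the WT library.

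Histone genes, whose replication-dependent members lack long poly(A) tails, had 2 of 14 measured members called higher at 0 h and 0 lower, with a median of 0.06 that was 0.62 without the length trend. Hist1h2bc had 53.9 FPKM in the library labelled KO and 31.8 FPKM in the WT library, and the variant H2afz had 401 FPKM in the library labelled KO and 704 FPKM in the WT library. Near-identical histone copies share reads, so single members are uncertain. Of 8 measured sex-linked genes 0 were called. In the reference genes, Polr2a, the largest subunit of RNA polymerase II, was the called member of 16, with 60.5 FPKM in the library labelled KO, against 29.5 FPKM in the WT library, a difference of 1.01 that was 0.65 without the trend.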
